A study of Mus musculus with 93 samples.

Results

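The genes described here are those of glycolysis, of the fates of its end product pyruvate and of the pentose phosphate pathway, read in peripheral blood cells (PBCs) of mice on Affymetrix mouse genome arrays. A list of 34 such genes was drawn up by pathway step, and a gene was kept where a probe set, the group of short probes that reads a transcript, carried its symbol alone. This held for 30 of the 34, out of 18193 genes read in the same way on these arrays. Where a gene had several such probe sets, the brightest on average over the 93 arrays stood for it, on the log2 scale. Gpi1, Gapdh, Eno1 and G6pdx had no such probe set and were not analysed here, except that Gapdh is among the controls on the array.

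All mice were FVB/NJ females. Tumor arrays (n = 65) were from MMTV/c-MYC transgenic mice with advanced mammary tumors, and control arrays (n = 28) from wild-type mice without tumors and of like age and parity. Per the study's methods, the mice carried a transgene for the oncogene c-MYC, in some cases with a mutation that stabilizes the protein. Its promoter, from the mouse mammary tumor virus (MMTV), answers to hormones and is active mainly in mammary epithelium. Several transgenic lines were used, and the sources used here do not give the line behind each array. Blood was drawn from the cheek, the last time at an average age of 431 days, red cells were lysed, and RNA of the remaining white cells was amplified before hybridization. Training and validation cohorts held 14 control arrays each, with 32 tumor arrays in the former and 33 in the latter.

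Tumor arrays were further divided by the number in their label, whose meaning the labels do not give. The late-numbered arrays (n = 52) were tumor training 6 to 32 and tumor validation 9 to 33, and the early-numbered arrays (n = 13) were tumor training 1 to 5 and tumor validation 1 to 8. No label ties an array to an animal, so the p-values below measure the spread between arrays. In blood, fewer cells of a type and less RNA per cell cannot be told apart.

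Glycolysis splits glucose to pyruvate in the cytosol with a net gain of ATP. Pyruvate is then reduced to lactate and exported, or enters mitochondria through pyruvate dehydrogenase. The pentose phosphate pathway branches off after the first step, makes NADPH in its oxidative arm and ribose phosphate for nucleotides, and returns carbon to glycolysis through transketolase and transaldolase. Neutrophils are known to live mainly by glycolysis and to use NADPH for the oxidative burst, while resting lymphocytes rely more on mitochondria. MYC is known to act on many glycolytic genes in cells that express it.

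The division by number coincided with the state of the arrays' control probe sets. The dap spike-in control averaged 2.22 (SD 0.322, n = 28) in control, 8.56 (SD 0.792, n = 52) in late-numbered and 2.70 (SD 0.505, n = 13) in early-numbered arrays, and 52 of 52 late-numbered arrays lay above the highest control. The actin control's 5' minus 3' signal, which falls as RNA is degraded or amplified short of its 5' end, averaged -0.643 in control, -0.538 in late-numbered and -1.42 in early-numbered arrays, and 13 of 13 early-numbered arrays lay below the lowest control. The tumor state and the technical state of a set therefore cannot be told apart in comparisons with controls. Tumor validation 19, tumor validation 2 and tumor validation 9 had the lowest median correlations with the other arrays, 0.911, 0.918 and 0.931, against 0.961 to 0.983 for control arrays.

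Compared with controls, late-numbered tumor arrays had higher signal for 20 of the 30 genes and lower signal for 4, and early-numbered tumor arrays had higher signal for 3 and lower for 13 (limma, Benjamini-Hochberg adjusted p under 0.05 over 45037 probe sets). The median difference over the 30 genes was 0.32 in late-numbered and -0.20 in early-numbered arrays. Set directly against each other, late-numbered arrays were higher than early-numbered arrays for 20 genes and lower for 4, with a median difference of 0.73. Both comparisons with controls share the same 28 control arrays. With each array centred on its median, 5 genes were higher and 12 lower in early-numbered arrays, and 19 higher and 7 lower in late-numbered against early-numbered arrays, while the median over all probe sets moved from 0.12 to 0.19 and from -0.13 to -0.21.

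These counts stand against a wide background of change. Of all probe sets tested, 23.9% were called higher and 19.9% lower in late-numbered arrays against controls, 37.9% higher and 24.6% lower in early-numbered arrays, and 27% higher and 41% lower in late-numbered against early-numbered arrays. All 30 genes lay above the median probe set level of 4.79, and bright genes as a class moved differently. Among the 10604 genes whose brightest probe set lay above that level, 34.2% were higher and 31.8% lower in late-numbered arrays, 16.3% higher and 46.9% lower in early-numbered arrays, and 49.3% higher and 26% lower in late-numbered against early-numbered arrays. Their medians were 0.02, -0.24 and 0.26. The share of the 30 genes that was lower in early-numbered arrays, 43.3%, was thus near that of bright genes at large, as was the 10% that was higher. Late-numbered arrays differed from this background more, with 66.7% of the genes higher and 13.3% lower.

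**Figure D1:**
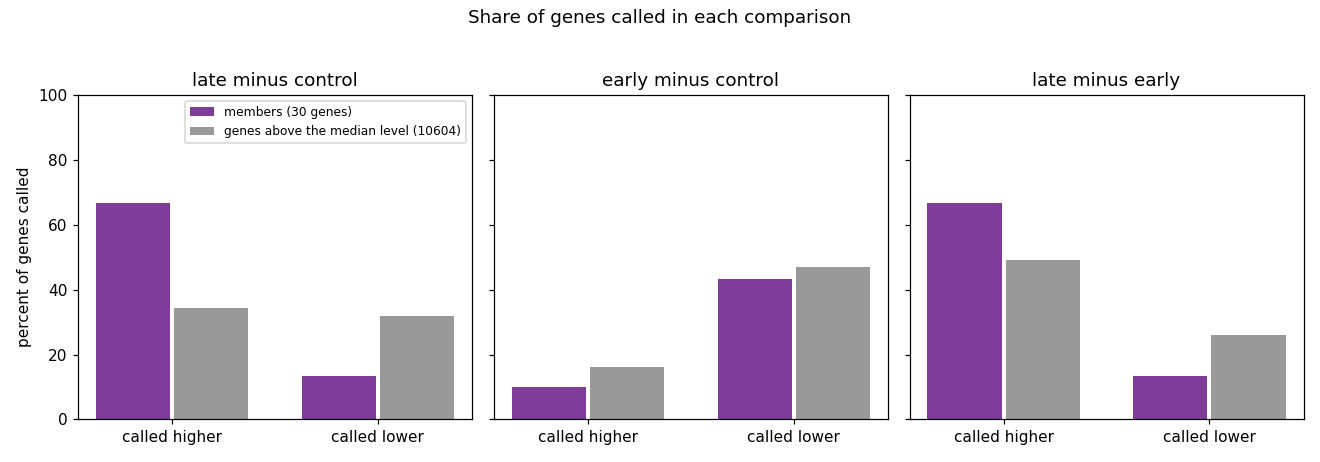
Percent of genes called higher or lower (vertical axis) in each of the 3 comparisons, for the 30 glycolysis and pentose phosphate genes (purple bars) and for the 10604 genes above the median probe set level (grey bars). The purple bar for higher in late-numbered against control arrays stands at 66.7% beside 34.2%, whereas the bars for lower in early-numbered arrays stand at 43.3% and 46.9%.

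Read together, 11 genes were higher in late-numbered and lower in early-numbered arrays than in controls: Pfkl, Pfkm, Aldoa, Aldoc, Tpi1, Pkm, Ldha, Pdha1, Pgls, Tkt and Taldo1. Another 5 were higher in late-numbered arrays than in controls and than in early-numbered arrays and were not called in early-numbered arrays: Hk3, Pfkp, Pfkfb4, Pgk1 and Slc16a3. How many genes outside the list had either joint pattern was not counted, so neither is shown to be particular to these genes. Pgd and Pfkfb3 were higher in both tumor sets, Pdk1 was lower in both, and Prps1 was lower in late-numbered and higher in early-numbered arrays. Hk2 was called in none of the 3 comparisons. With the mean levels of neutrophil, monocyte, B cell, T cell and erythroid markers as covariates, 15 genes were higher and 6 lower in late-numbered arrays, and 3 higher and 10 lower in early-numbered arrays. Of all 45037 probe sets, that fit called 8456 higher and 6990 lower in late-numbered arrays, and 8686 higher and 5829 lower in early-numbered arrays. With the first 3 principal components of the control probe sets as covariates, 8 genes rather than 20 were called higher in late-numbered arrays than in controls. In that fit Hk1, Tpi1 and Taldo1 were called lower, and Hk3, Pfkm, Aldoa, Aldoc, Pfkfb3, Pfkfb4, Pkm, Slc16a3 and Pgd were not called. Over all probe sets it called 5010 higher and 3244 lower. The components were drawn from all control probe sets, including those of dap and Gapdh, which differed between the sets. They therefore overlap with the division into sets, and here and below this fit cannot tell a technical from a tumor difference.

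**Figure D2:**
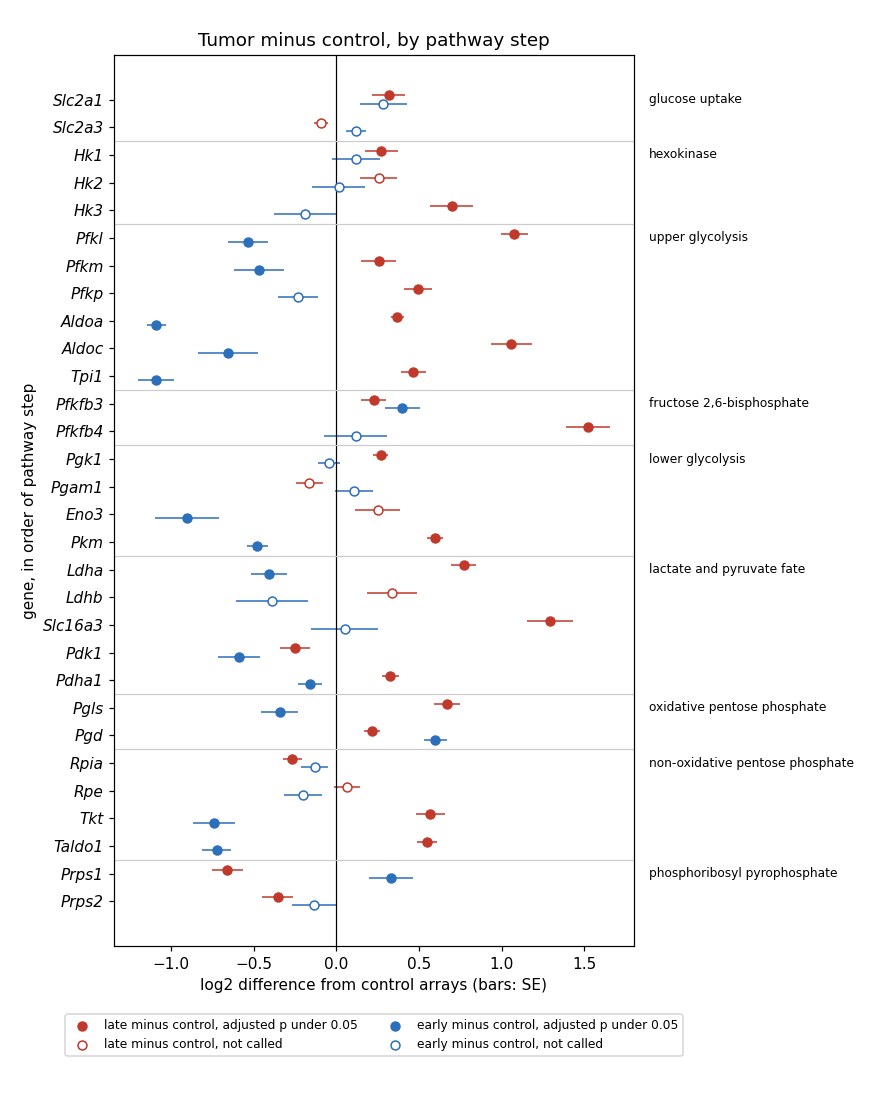
Log2 difference from the control arrays (horizontal axis) with its standard error for each of the 30 genes (vertical axis, in pathway order), in late-numbered (red) and early-numbered (blue) tumor arrays; filled points had an adjusted p under 0.05. From Pfkl to Tpi1 all red points lie right of 0 and all blue points left of it, while Pfkfb4 at 1.52 and Slc16a3 at 1.29 are the red points farthest to the right, with blue points near 0.

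Because MYC and the hypoxia-inducible factor are both known to bind short motifs around ACGTG at many glycolytic genes, the promoters were searched for them. By RT-PCR the paper found hardly any c-MYC transcript in the transgenic mice's blood cells beside the high levels in their tumors. It also reported no significant difference of Myc probe sets between groups of mice. The sequences are from RefSeq, assembly GRCm38.p6, and run 5′ to 3′ along the gene over the 250 bases before an annotated start. CACGTG, the E-box core, and ACGTG were sought on both strands, and every CACGTG also holds ACGTG on each strand. A window was found for 29 of the 30 genes, all but Slc2a3. ACGTG occurred before 11 of them (37.9%), against 18.5% of the 27025 genes with such windows, and CACGTG before 3 (10.3%), against 6.86%. That background was not limited to genes expressed in blood. Of the 11 genes higher in late-numbered and lower in early-numbered arrays, 4 (36.4%) had ACGTG. Among the 20 genes higher in late-numbered arrays it stood before 9: Slc2a1, Hk3, Pfkm, Aldoa, Pfkfb3, Pgk1, Pkm, Ldha and Slc16a3. Printed below are the window with the most sites, that of Ldha, and the windows of Slc2a1, Pfkm and Pgk1, which end just before the gene's outermost annotated start. Capitals mark the motif. Matches are descriptions of these letters and say nothing on binding.
Ldha, chr7:46845554-46845803, + strand: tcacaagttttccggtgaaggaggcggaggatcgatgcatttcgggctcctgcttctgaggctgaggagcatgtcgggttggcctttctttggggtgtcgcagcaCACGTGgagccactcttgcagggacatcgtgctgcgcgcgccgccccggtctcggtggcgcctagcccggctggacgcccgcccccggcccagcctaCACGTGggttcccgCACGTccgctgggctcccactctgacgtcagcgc
Slc2a1, chr4:119108495-119108744, + strand: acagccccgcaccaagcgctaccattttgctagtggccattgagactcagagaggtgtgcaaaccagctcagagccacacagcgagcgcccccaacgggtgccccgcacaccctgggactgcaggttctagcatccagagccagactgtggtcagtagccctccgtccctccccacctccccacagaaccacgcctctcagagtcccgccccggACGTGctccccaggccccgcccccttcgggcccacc
Pfkm, chr15:98092339-98092588, + strand: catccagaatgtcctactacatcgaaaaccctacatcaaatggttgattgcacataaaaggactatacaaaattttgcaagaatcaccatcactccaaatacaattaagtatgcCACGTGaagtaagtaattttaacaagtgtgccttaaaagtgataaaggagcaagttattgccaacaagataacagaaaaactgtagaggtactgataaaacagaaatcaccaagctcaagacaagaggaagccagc
Pgk1, chrX:106186850-106187099, + strand: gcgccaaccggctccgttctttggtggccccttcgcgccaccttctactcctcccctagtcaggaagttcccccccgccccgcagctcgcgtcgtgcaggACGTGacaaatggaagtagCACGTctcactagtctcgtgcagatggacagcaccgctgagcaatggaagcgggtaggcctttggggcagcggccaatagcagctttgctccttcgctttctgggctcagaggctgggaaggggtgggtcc
Ldha carried 3 sites in its window, beginning at positions -145, -48 and -34 from the start, of which those at -145 and -48 were E-boxes. The annotated span of Ldha begins upstream of this window, so the window lies inside the span of a longer transcript. In Pfkm the single site, at position -136, was also an E-box, while Slc2a1 had 1 site and Pgk1 had 2, none of them an E-box.

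Glucose enters blood cells through the transporters Slc2a1 (GLUT1) and Slc2a3 (GLUT3). Slc2a1 lay between 11.2 and 12.2 in control arrays (median 11.7), between 11.1 and 12.8 in late-numbered arrays (median 11.9) and between 11.2 and 13 in early-numbered arrays (median 11.8). The 3 ranges overlapped widely, and 17 of 52 late-numbered and 5 of 13 early-numbered arrays exceeded the highest control. It was higher in late-numbered arrays by 0.32 (SE 0.0984, adjusted p = 0.00548), while the difference in early-numbered arrays was 0.28 (SE 0.141, adjusted p = 0.0714). The next brightest Slc2a1 probe set was called higher in early-numbered arrays (0.57, adjusted p = 7.62e-06) and not called in late-numbered ones. The dimmest gave the same calls against controls as the brightest. With the leukocyte marker levels as covariates the late difference of Slc2a1 was -0.09 (adjusted p = 0.382). Slc2a3 was among the brightest of the genes, with medians of 13.25, 13.2 and 13.4. By its brightest probe set it was called against controls in neither tumor set (-0.10, adjusted p = 0.0659, and 0.12, adjusted p = 0.0872). By the same probe set late-numbered arrays were lower than early-numbered arrays by a difference of -0.21 (adjusted p = 0.000716). The next brightest was called lower in late-numbered (-0.24, adjusted p = 8.8e-08) and higher in early-numbered arrays (0.19, adjusted p = 0.00152). The dimmest was called the other way in both, at 0.43 and -0.61, and the remaining one in neither. Without any one of tumor training 1, tumor training 4, tumor validation 4 and tumor validation 7, Slc2a1 was also called higher in early-numbered arrays, at 0.20 to 0.35 over all arrays left out in turn. Slc2a3 was called lower in late-numbered arrays without any one of control training 3, control validation 5 and tumor training 12 and 32, and higher in early-numbered arrays without tumor validation 19, at 0.12 (adjusted p = 0.0456).

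Hexokinases trap glucose as glucose 6-phosphate. Of the 3 forms, each read by its brightest probe set, Hk3, the form of myeloid cells, differed most. It ran from 7.21 to 9.32 in control arrays (median 8.645), from 6.65 to 10.7 in late-numbered arrays (median 9.375) and from 7.60 to 9.02 in early-numbered arrays (median 8.3). Late-numbered arrays were higher than controls by 0.70 (SE 0.131, adjusted p = 4.05e-06) and than early-numbered arrays by 0.89 (adjusted p = 5.39e-06), and 27 of 52 lay above the highest control. The lowest late-numbered value of Hk3 was that of tumor validation 19. The dimmer Hk3 probe set was not called in late-numbered arrays (0.19, adjusted p = 0.226). In early-numbered arrays it was lower by a difference of -0.62 (adjusted p = 0.00221), and the dimmer Hk1 probe set by -1.24 (adjusted p = 3.51e-08). Given the leukocyte marker levels, the late difference of Hk3 was 0.21 (adjusted p = 0.0664). Hk1, the form found in most cells, was higher in late-numbered arrays by 0.27 (SE 0.102, adjusted p = 0.0227), and within training arrays alone by 0.33 (adjusted p = 0.0652) and within validation arrays alone by 0.21 (adjusted p = 0.312). With the principal components of the control probe sets as covariates, the late difference of Hk1 was -1.45 (adjusted p = 0.000471) and that of Hk3 was -0.26 (adjusted p = 0.752). Hk2, the inducible form, differed by 0.26 (adjusted p = 0.0565) and without tumor validation 19 by 0.30 (adjusted p = 0.0115). It was likewise called without any one of control training 6, control validation 2, 3, 6, 9 and 13, tumor training 22, 25 and 31, and tumor validation 11, 14, 20, 22, 23, 24, 26 and 31, and with the leukocyte marker levels it was lower by a difference of -0.31 (adjusted p = 0.00181).

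From fructose 6-phosphate to the triose phosphates, all 6 genes measured were higher in late-numbered arrays and 5 of 6 were lower in early-numbered arrays. Phosphofructokinase commits sugar to glycolysis and is built from liver (Pfkl), muscle (Pfkm) and platelet (Pfkp) subunits. Pfkl lay between 6.93 and 7.78 in control arrays (median 7.405), between 7.78 and 9.31 in late-numbered arrays (median 8.46) and between 6.09 and 7.39 in early-numbered arrays (median 6.98). Late-numbered arrays met the controls only at 7.78, with 51 of 52 above the highest control, and no early-numbered array reached the lowest late-numbered one. Here and for Aldoa, Tpi1 and Pkm below, how many other genes separated the tumor sets as fully was not counted. Of genes above the median level, 49.3% were called higher and 26% lower between these sets. The late difference was 1.08 (SE 0.0839, 2.11-fold, adjusted p = 1.83e-20) and the early difference was -0.53 (SE 0.12, 0.69 times the control level, adjusted p = 8.36e-05), which put late-numbered arrays 3.06-fold above early-numbered ones.

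The other subunits moved less. Pfkp was higher in late-numbered arrays by 0.49 (SE 0.0849, adjusted p = 5.24e-07), although a single array, tumor validation 19 at 12.1, exceeded the highest control of 10.1. Without that array the late difference was 0.45, and the early difference of Pfkp, -0.23 with adjusted p = 0.0857 in all arrays, became a call at adjusted p = 0.026. It was likewise called without tumor validation 5. Pfkm was higher in late-numbered arrays by 0.25 (SE 0.106, adjusted p = 0.0433) and lower in early-numbered arrays by a difference of -0.47 (SE 0.153, adjusted p = 0.00592). Its late call was lost without any one of 25 arrays, namely control training 2, 3, 7, 10 and 13, tumor training 12, 20, 23, 25, 27, 28 and 29, control validation 1, 2, 3, 5, 9 and 13, and tumor validation 10, 15, 19, 20, 22, 28 and 31, with values of 0.22 to 0.28 over all arrays left out in turn. Given the actin control's 5' minus 3' signal, the early difference of Pfkm was -0.10 (adjusted p = 0.734). That signal was below the lowest control in 13 of 13 early-numbered arrays. As a covariate it therefore overlaps with the set, here and for the genes below, and cannot separate a technical from a tumor difference.

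Aldolase cleaves fructose 1,6-bisphosphate, and Aldoa is its common form. Aldoa lay between 12.4 and 12.8 in control arrays (median 12.6), between 12.6 and 13.3 in late-numbered arrays (median 13) and between 11.1 and 12.3 in early-numbered arrays (median 11.5). Every one of the 13 early-numbered arrays was thus below the lowest control, and 45 of 52 late-numbered arrays were above the highest. The late difference was 0.37 (SE 0.0397, adjusted p = 1.44e-13) and the early difference -1.09 (SE 0.057, 0.469 times the control level, adjusted p = 4.25e-31). Aldoc, a form best known from brain, read at lower levels with control values from 4.76 to 6.67, was higher in late-numbered arrays by 1.06 (SE 0.127, adjusted p = 8.48e-12) and lower in early-numbered arrays by a difference of -0.66 (SE 0.182, adjusted p = 0.00123). With the actin signal as a covariate the early difference of Aldoc was -0.30 (adjusted p = 0.35).

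Triose phosphate isomerase, Tpi1, interconverts both products of aldolase. Its values ran from 10.1 to 11.2 in control arrays (median 10.6), from 10.4 to 11.9 in late-numbered arrays (median 11.05) and from 8.86 to 10.2 in early-numbered arrays (median 9.59). Of the early-numbered arrays, 12 of 13 were below the lowest control and 13 of 13 below the lowest late-numbered array, whereas late-numbered and control arrays overlapped, with 16 of 52 above the highest control. The late difference was 0.47 (SE 0.0752, adjusted p = 1.2e-07) and the early difference -1.09 (SE 0.108, adjusted p = 5.68e-15). Tpi1 turned to -0.86 in late-numbered arrays (adjusted p = 0.0125) when the principal components of the control probe sets were covariates.

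**Figure D3:**
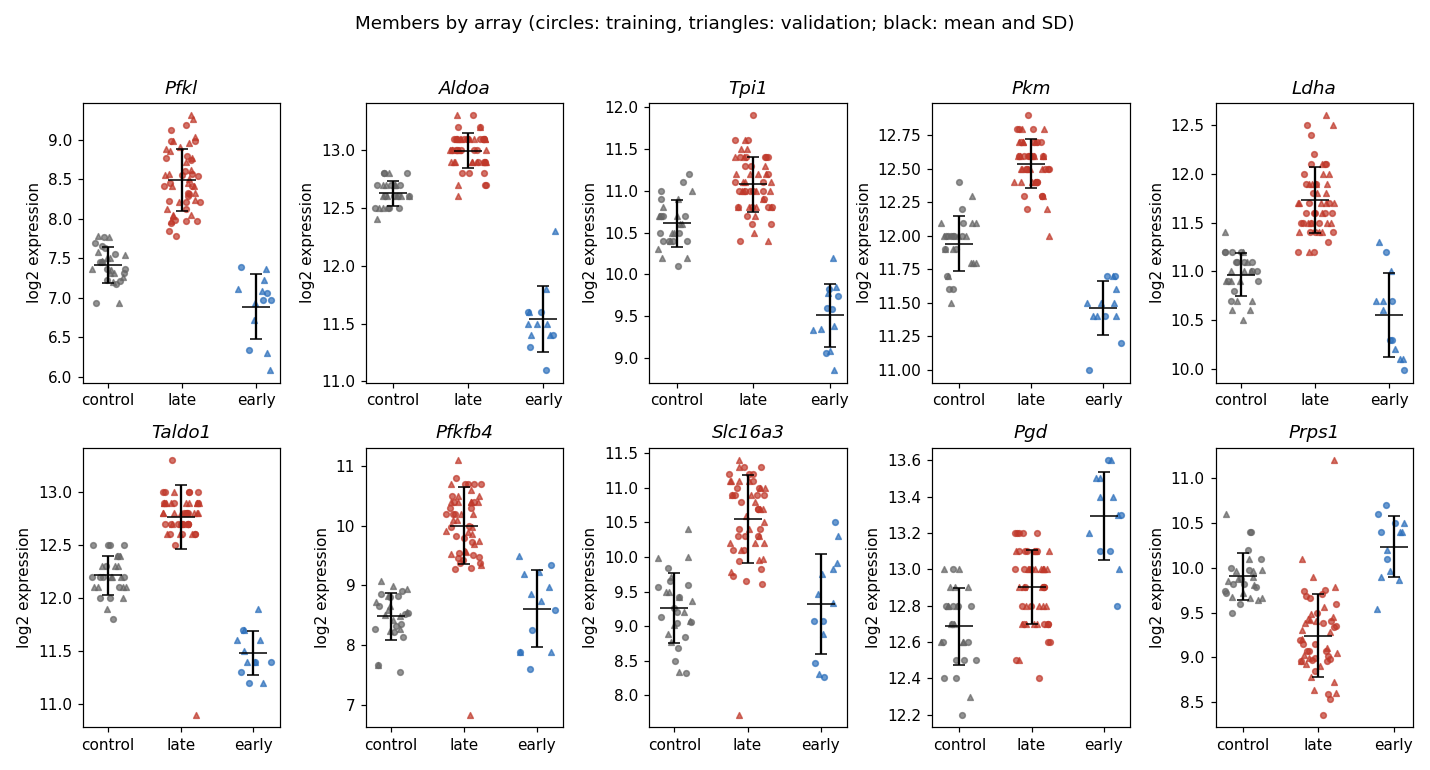
Log2 expression (vertical axes) of 10 of the genes in each control, late-numbered and early-numbered tumor array; circles are training and triangles validation arrays, and black lines give the mean and SD of a set. In Pfkl, Aldoa, Tpi1 and Pkm no early-numbered array reaches the lowest late-numbered array, most late-numbered arrays lie above the early-numbered ones in Pfkfb4 and Slc16a3 while tumor validation 19 lies low at 6.83 and 7.72, and the early-numbered means of Pgd and Prps1 are the highest of the 3 sets.

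Fructose 2,6-bisphosphate is the strongest known activator of phosphofructokinase, and the PFKFB enzymes make and break it. Pfkfb4 had the largest late difference of the 30 genes. It lay between 7.54 and 9.07 in control arrays (median 8.53), between 6.83 and 11.1 in late-numbered arrays (median 10.1) and between 7.60 and 9.50 in early-numbered arrays (median 8.73). All late-numbered arrays but tumor validation 19, the lowest at 6.83, were above the highest control. The late difference was 1.52 (SE 0.134, 2.87-fold, adjusted p = 1.18e-17), against 0.12 (SE 0.192, adjusted p = 0.61) in early-numbered arrays, and late-numbered arrays were above early-numbered ones by 1.41 (adjusted p = 3.92e-11). With the leukocyte marker levels as covariates the late difference of Pfkfb4 was 1.00 and was still called, whereas with the principal components of the control probe sets it was 0.40 (adjusted p = 0.615) and the difference from early-numbered arrays was -0.27 (adjusted p = 0.747). Pfkfb3, the form best known from dividing and activated cells, was higher in both tumor sets, by 0.23 (SE 0.0751, adjusted p = 0.00981) in late-numbered and 0.40 (SE 0.108, adjusted p = 0.000906) in early-numbered arrays, and the late difference was -0.06 given the leukocyte marker levels.

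The steps from glyceraldehyde 3-phosphate to pyruvate repay the ATP spent above. Pyruvate kinase, Pkm, makes pyruvate. It lay between 11.5 and 12.4 in control arrays (median 12.0), between 12.0 and 12.9 in late-numbered arrays (median 12.6) and between 11 and 11.7 in early-numbered arrays (median 11.5). Late-numbered and early-numbered arrays did not overlap, and 37 of 52 late-numbered arrays were above the highest control while 6 of 13 early-numbered arrays were below the lowest. The differences from controls were 0.60 (SE 0.0458, 1.51-fold, adjusted p = 7.75e-21) and -0.48 (SE 0.0657, adjusted p = 1.31e-09). Phosphoglycerate kinase, Pgk1, which makes the first ATP, was higher in late-numbered arrays by 0.27 (SE 0.046, adjusted p = 5.44e-07) and by 0.03 (adjusted p = 0.638) with the leukocyte marker levels as covariates.

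Eno3, the muscle form of enolase, was lower in early-numbered arrays by a difference of -0.90 (SE 0.195, adjusted p = 4.32e-05), with 5 of 13 arrays below the lowest control of 8.46. In late-numbered arrays it differed by 0.25 (adjusted p = 0.13) and spread from 7.51 to 10.7, so that 5 arrays lay above and 5 below the control range. Phosphoglycerate mutase, Pgam1, was called against controls in neither set (-0.16, adjusted p = 0.0886, and 0.11, adjusted p = 0.412), and late-numbered arrays were lower than early-numbered arrays by a difference of -0.27 (adjusted p = 0.0189). That call was lost without tumor training 5 or without tumor validation 6, and over all arrays left out in turn the difference of Pgam1 lay between -0.33 and -0.21.

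Gapdh, whose enzyme makes NADH at the start of this stretch, was read by 3 control probe sets along its transcript. The 3' one averaged 13.12 in control, 13.36 in late-numbered and 12.42 in early-numbered arrays. Its late difference was 0.24 (SE 0.0395, adjusted p = 1.77e-07) and its early difference -0.70 (SE 0.0568, adjusted p = 2.7e-19), and the middle one differed by 0.52 and -0.72. The 5' probe set differed by 0.10 (adjusted p = 0.41) and -0.91 (adjusted p = 8.5e-09). All 3 probe sets were therefore lower in early-numbered arrays, and those of the middle and 3' end were higher in late-numbered arrays.

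Lactate dehydrogenase reduces pyruvate to lactate, with Ldha the subunit that favours lactate. Ldha lay between 10.5 and 11.4 in control arrays (median 11), between 11.2 and 12.6 in late-numbered arrays (median 11.7) and between 9.99 and 11.3 in early-numbered arrays (median 10.6). Most late-numbered arrays, 42 of 52, exceeded the highest control, and 6 of 13 early-numbered arrays lay under the lowest. The late difference was 0.77 (SE 0.075, 1.71-fold, adjusted p = 1.55e-15) and the early difference -0.41 (SE 0.108, adjusted p = 0.000656), which with the actin signal as a covariate was -0.26 (adjusted p = 0.173). Ldhb, the subunit of oxidative tissues, differed by 0.34 (adjusted p = 0.0618) and -0.39 (adjusted p = 0.111) by its brightest probe set. The other 3 probe sets of Ldhb were all called, higher in late-numbered arrays by 0.46 to 0.57 and lower in early-numbered arrays by differences of -0.56 to -0.41. Leaving out tumor validation 19, the lowest late-numbered array at 4.81, made the late difference of Ldhb 0.40 (adjusted p = 0.00705), and it was also called without any one of control training 10, tumor training 12, 15 and 32 and control validation 9. Without tumor training 2 or tumor validation 5 it was called lower in early-numbered arrays.

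Slc16a3 (MCT4) exports lactate from strongly glycolytic cells. It lay between 8.33 and 10.4 in control arrays (median 9.235), between 7.72 and 11.4 in late-numbered arrays (median 10.7) and between 8.27 and 10.5 in early-numbered arrays (median 9.33). Early-numbered and control arrays covered nearly the same range, and 30 of 52 late-numbered arrays were above the highest control. Its late difference was 1.29 (SE 0.141, 2.45-fold, adjusted p = 1.9e-13), the early difference was 0.05 (SE 0.202, adjusted p = 0.842), and late-numbered arrays were above early-numbered ones by 1.25 (adjusted p = 9.53e-09). With the leukocyte marker levels as covariates the late difference of Slc16a3 was 0.69 and was called, whereas with the principal components of the control probe sets it was 0.51 (adjusted p = 0.549) and the difference from early-numbered arrays was 0.06 (adjusted p = 0.952).

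Pdha1, a subunit of pyruvate dehydrogenase, and Pdk1, a kinase that switches that enzyme off, frame the entry to mitochondria. Pdha1 was higher in late-numbered arrays by 0.33 (SE 0.0498, adjusted p = 2.36e-08), with 30 of 52 arrays above the highest control of 10.3. In early-numbered arrays it differed by -0.16 (SE 0.0715, adjusted p = 0.0426), a call lost without any one of 14 arrays: control training 3, 4, 5, 7, 12 and 13, tumor training 1, 4 and 5, control validation 6 and 11, and tumor validation 1, 2 and 7. Over all arrays left out in turn, this difference of Pdha1 lay between -0.20 and -0.12. Pdk1 was lower in both tumor sets, by differences of -0.25 (SE 0.089, adjusted p = 0.016) and -0.59 (SE 0.128, adjusted p = 4.55e-05). Late-numbered arrays were above early-numbered ones by 0.34 in Pdk1 (adjusted p = 0.00868), and by 0.24 (adjusted p = 0.0568) without tumor validation 2.

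The oxidative arm of the pentose phosphate pathway makes NADPH. Its 2 measured genes, read by their brightest probe sets, parted ways in early-numbered arrays. The dimmest Pgd probe set was not called there (-0.17, adjusted p = 0.271). Pgls, the lactonase of the second step, was higher in late-numbered arrays by 0.67 (SE 0.0775, adjusted p = 2.49e-12), with 38 of 52 above the highest control of 6.96, and lower in early-numbered arrays by a difference of -0.34 (SE 0.111, adjusted p = 0.00543). Pgd, the dehydrogenase that yields the second NADPH, lay between 12.2 and 13 in control arrays (median 12.7), between 12.4 and 13.2 in late-numbered arrays (median 12.9) and between 12.8 and 13.6 in early-numbered arrays (median 13.3). Early-numbered arrays were the high ones, with 11 of 13 above the highest control against 14 of 52 late-numbered arrays. The early difference of Pgd was 0.60 (SE 0.0708, 1.52-fold, adjusted p = 8.31e-12) and the late difference 0.22 (SE 0.0493, adjusted p = 0.000122), which was 0.06 (adjusted p = 0.288) with the leukocyte marker levels as covariates. Late-numbered arrays were below early-numbered ones by a difference of -0.38 (adjusted p = 3.01e-07), and by -0.11 (adjusted p = 0.377) given the actin signal.

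In the non-oxidative arm, transketolase (Tkt) and transaldolase (Taldo1) shuffle carbon between pentoses and glycolytic sugars, and both followed the pattern of upper glycolysis. Taldo1 lay between 11.8 and 12.5 in control arrays (median 12.2), between 10.9 and 13.3 in late-numbered arrays (median 12.8) and between 11.2 and 11.9 in early-numbered arrays (median 11.4). All but 2 late-numbered arrays exceeded the highest control, tumor validation 19 being the lowest of the set at 10.9, and 12 of 13 early-numbered arrays fell short of the lowest control. Its late difference was 0.55 (SE 0.0607, adjusted p = 4.01e-13) and its early difference -0.73 (SE 0.0871, adjusted p = 1.54e-11). With the principal components of the control probe sets as covariates, the late difference of Taldo1 was -0.57 (adjusted p = 0.0459).

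Tkt ran from 11.1 to 12.3 in control arrays (median 11.8), from 11.6 to 13.4 in late-numbered arrays (median 12.3) and from 10.4 to 11.7 in early-numbered arrays (median 11.1). The sets overlapped at their edges, with 25 of 52 late-numbered arrays above and 5 of 13 early-numbered arrays below the control range. The differences were 0.57 (SE 0.0887, adjusted p = 4.62e-08) and -0.74 (SE 0.127, adjusted p = 5.48e-07). Rpia, which isomerizes ribose 5-phosphate, was lower in late-numbered arrays by a difference of -0.27 (SE 0.0573, adjusted p = 4.59e-05), with 11 of 52 under the lowest control of 9.49, and differed by -0.13 (adjusted p = 0.157) in early-numbered arrays. Rpe, the epimerase beside it, was called against controls in neither set, and late-numbered arrays were above early-numbered ones by 0.26 (adjusted p = 0.0244). Without tumor training 4, tumor validation 2 or tumor validation 7 that call of Rpe was lost, with 0.19 (adjusted p = 0.106) without tumor validation 2.

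Phosphoribosyl pyrophosphate synthetases turn ribose 5-phosphate into the precursor of nucleotides, and both measured genes were lower in late-numbered arrays. Prps1 lay between 9.49 and 10.6 in control arrays (median 9.86), between 8.36 and 11.2 in late-numbered arrays (median 9.17) and between 9.54 and 10.7 in early-numbered arrays (median 10.4). Of the late-numbered arrays, 40 of 52 were below the lowest control, and the highest value of all, 11.2, was that of tumor validation 9. In late-numbered arrays the difference was -0.66 (SE 0.093, 0.633 times the control level, adjusted p = 2.31e-09) and the early difference 0.33 (SE 0.134, adjusted p = 0.0257). The early call of Prps1 was lost without tumor training 2 or without tumor training 3 (the largest adjusted p over all arrays left out in turn was 0.0588), and the difference was 0.06 (adjusted p = 0.745) with the leukocyte marker levels as covariates. Prps2 was lower in late-numbered arrays by a difference of -0.36 (SE 0.0941, adjusted p = 0.000979), which became -0.05 (adjusted p = 0.71) given the leukocyte marker levels. Rpia and Prps2 were called lower in late-numbered than in early-numbered arrays without tumor training 4 or without tumor validation 2, at -0.18 and -0.31 without the latter, against -0.14 and -0.22 in all arrays.

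Averaged over the 30 genes, an array's level was 9.69 (SD 0.122, n = 28) in control, 10.06 (SD 0.145, n = 52) in late-numbered and 9.45 (SD 0.223, n = 13) in early-numbered arrays. It exceeded the highest control in 39 of 52 late-numbered arrays and fell below the lowest control in 5 of 13 early-numbered arrays. The lowest late-numbered mean, 9.65, was that of tumor validation 19. In that array Slc2a3, Hk1, Hk2, Hk3, Pfkfb3, Pfkfb4, Ldhb, Slc16a3 and Taldo1 were below every control array, while Pfkm, Pfkp, Pdha1, Pgls and Prps2 had their highest late-numbered values. Its platelet marker mean, 8.81, was the lowest and its T cell marker mean, 11.86, the highest among the late-numbered arrays. Without it, 21 genes were higher and 4 lower in late-numbered arrays than in controls, and 4 higher and 14 lower in early-numbered arrays.

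**Figure D4:**
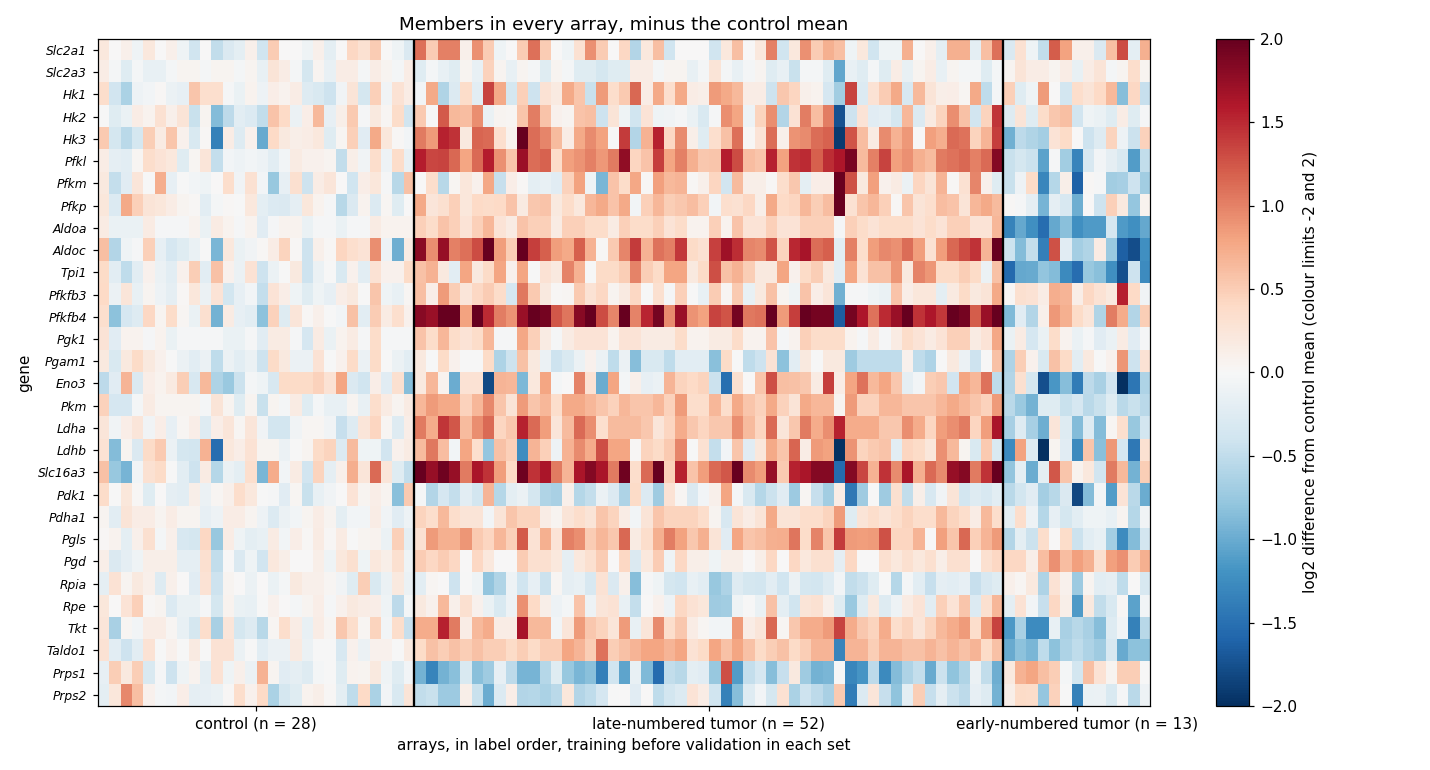
Log2 difference of each array (columns, by set) from the control mean for each of the 30 genes (rows), with colours limited to -2 and 2. Rows from Pfkl to Tpi1 are mostly red in the late-numbered block and blue in the early-numbered block, Pgd is red in the early-numbered block, Prps1 is blue in the late-numbered block, and the column of tumor validation 19 stands apart with blue cells at Hk2, Hk3, Pfkfb4 and Taldo1.

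Of the 30 genes, 18 were read by more than 1 probe set, 67 probe sets in all counting the single ones. In the late comparison 15 of the 18 were called by the brightest probe set, all other probe sets of the gene were called in the same direction in 7, and in Pfkl another probe set was called in the opposite direction, at -1.03 against 1.08. In the early comparison 9 were called, with all others called alike in 2 and no opposite call among the 9. Slc2a1, Slc2a3, Hk1, Hk3, Pfkp, Pgk1, Ldhb and Prps2 were not called there by the brightest probe set but were called by another. In Slc2a3 such calls went both ways. Tpi1 was steady, with early differences of -1.09, -0.94 and -0.87, whereas in Aldoa 4 probe sets lay between -1.37 and -0.83 and the last at 0.17 (adjusted p = 0.236). The direction of Pgd depended on the choice. Its 3 brightest probe sets gave early differences of 0.60, 0.61 and 0.62, and the dimmest gave -0.17 (adjusted p = 0.271) with a late difference of 0.94. Pgk1 differed by -0.04 in early-numbered arrays by its brightest probe set and by 0.66 and 0.72 by the others. Hk1 differed by 0.12 by its brightest probe set and by -1.24 by the other. Between late-numbered and early-numbered arrays, 14 were called by the brightest probe set, 9 with all others called alike, and another probe set was called in the opposite direction in Slc2a3, Pfkl, Pgk1, Pdk1 and Pgd.

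**Figure D5:**
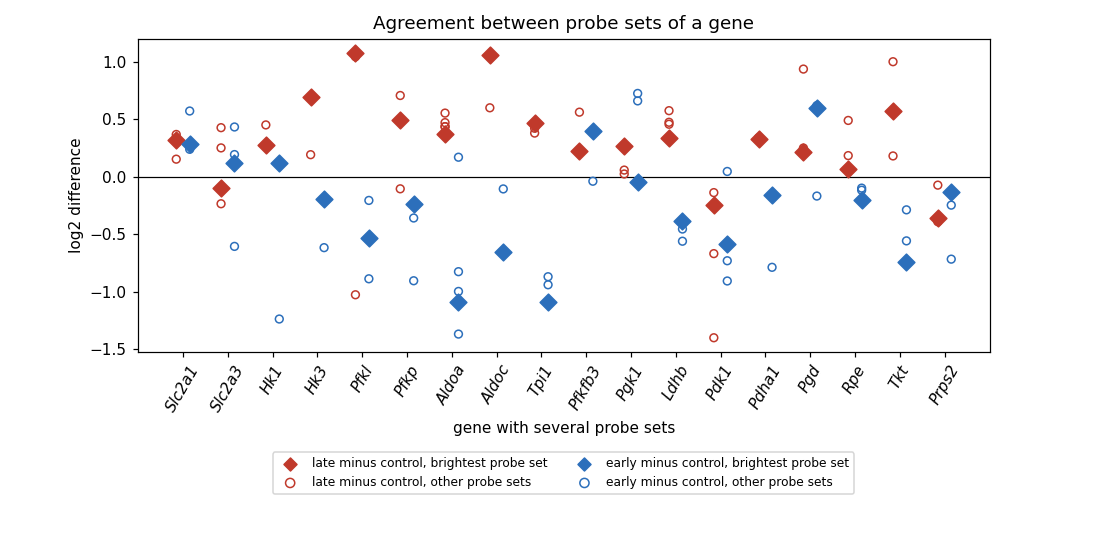
Log2 difference from control arrays (vertical axis) by every probe set of the 18 genes with several (horizontal axis), for late-numbered (red) and early-numbered (blue) tumor arrays; diamonds are the brightest probe sets and open circles the others. The circles of Tpi1 and Ldhb lie close to their diamonds, while those of Hk1, Pfkl, Pgk1, Pdk1 and Pgd lie far from them.

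Levels of leukocyte markers also differed between the sets. For comparison, 34.2% and 31.8% of genes above the median level were higher and lower in late-numbered arrays, and 16.3% and 46.9% in early-numbered arrays. Of the neutrophil markers, 7 of 10 were higher and 0 lower in late-numbered arrays, and 1 was higher and 2 lower in early-numbered arrays; the mean of the list ran from 10.26 to 12.3 in control, 11.23 to 13.07 in late-numbered and 9.99 to 12.81 in early-numbered arrays. Monocyte markers were higher in 4 of 9 and lower in 0 in late-numbered arrays, and higher in 2 and lower in 4 in early-numbered arrays. B cell markers were lower in 10 of 11 in late-numbered and 9 of 11 in early-numbered arrays, their means running from 8.44 to 10.09, 6.34 to 9.79 and 7.08 to 9.35 in the 3 sets. T cell markers were lower in 6 of 10 and 8 of 10, with 1 higher in late-numbered arrays, and NK markers were lower in 2 of 9 and 7 of 9, again with 1 higher in late-numbered arrays. Erythroid markers were higher in 1 of 6 and 4 of 6, and platelet markers were higher in 1 of 8 in late-numbered and lower in 3 of 8 in early-numbered arrays. Of the mammary epithelial markers, 4 of 10 were higher in each tumor set and 1 was lower in early-numbered arrays. This list averaged 3.91 in control arrays, below the median probe set level of 4.79. All probe sets are thus the nearer background, with 23.9% higher in late-numbered and 37.9% higher and 24.6% lower in early-numbered arrays. Csn2, a milk casein, lay between 2.09 and 2.86 in control arrays (median 2.365), between 2.07 and 9.17 in late-numbered arrays (median 2.635) and between 2.22 and 7.07 in early-numbered arrays (median 2.91), so single tumor arrays of both sets were far above all controls. Cdh1 averaged 7.10 in controls and was called in neither set, at -0.13 and -0.26. The paper counted leukocyte classes in blood drawn at death and reported similar profiles in tumor-bearing mice and matched controls. It proposes that expression differences likely come from the tumor and not from cell proportions. The sources used here do not tie those counts to early-numbered or late-numbered arrays. Apart from the fits with marker levels as covariates given above, the part of cell makeup in these results was not tested here.

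Each cohort was also fitted alone. Training arrays alone gave 19 genes higher and 4 lower in late-numbered arrays and validation arrays alone 15 higher and 2 lower, and in early-numbered arrays the counts were 2 higher and 9 lower in training and 2 higher and 10 lower in validation arrays. Over all 45037 probe sets the late counts were 8509 higher and 7249 lower in training and 6785 and 6280 in validation arrays. The early counts were 13687 and 8677 in training and 10953 and 8159 in validation arrays. Within cohorts Pfkl differed by 1.01 and 1.15 in late-numbered arrays, Ldha by 0.68 and 0.86, and Pfkfb4 by 1.61 and 1.43. Aldoa differed by -1.24 and -0.996 in early-numbered arrays. No interaction of set and cohort was called for any of the 30 genes (limma, adjusted over all probe sets), and at an unadjusted p under 0.05 it was found for 1 gene in each comparison, Pfkp in late-numbered and Aldoa in early-numbered arrays. Over all probe sets, 0 interactions were called for the late comparison (990 at an unadjusted p under 0.05) and 145 for the early one (5618 at an unadjusted p under 0.05).

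Neighbouring pathways were counted in the same way. Of 14 other genes of pyruvate and lactate handling, 5 were higher and 2 lower in late-numbered arrays, and 2 were higher and 7 lower in early-numbered arrays. The 5 higher in late-numbered and the 7 lower in early-numbered arrays were close to the shares of genes above the median level, 34.2% and 46.9%. The 2 lower in late-numbered arrays stood beside a larger share, 31.8%. The list was not tested, and its counts are not read as particular to it. Bsg (basigin), the chaperone that brings MCT4 to the cell surface, was higher in late-numbered arrays by 1.02 (SE 0.119, adjusted p = 2.59e-12) and differed by -0.34 (adjusted p = 0.0748) in early-numbered arrays. Mpc1, a subunit of the mitochondrial pyruvate carrier, differed by 0.39 and -0.79, both called. Pdk2 differed by 0.59 and -1.14, both called, which was unlike Pdk1. Pdhb, the other chain of the first pyruvate dehydrogenase enzyme, was called only in early-numbered arrays, at -0.77.

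Among 10 further genes of pentose phosphate and ribose metabolism, 4 were higher and 2 lower in late-numbered arrays, and 1 higher and 3 lower in early-numbered arrays. Genes above the median level were 34.2% higher and 31.8% lower in late-numbered arrays, and 16.3% higher and 46.9% lower in early-numbered arrays. Pgm2, a phosphopentomutase that feeds ribose phosphate into the pathway, was higher in late-numbered arrays by 1.14 (SE 0.12, adjusted p = 5.4e-14). Prpsap1 and Prpsap2, the proteins that associate with the PRPS enzymes, were lower in early-numbered arrays by differences of -0.77 and -1.22, and Shpk, a sedoheptulose kinase, was higher in late-numbered arrays by 0.28. In 22 other genes of glucose uptake and glycolysis, many of them tissue forms near the bottom of the scale, 6 were higher and 3 lower in late-numbered arrays, and 9 higher and 3 lower in early-numbered arrays. All probe sets were 23.9% higher and 19.9% lower in late-numbered arrays, and 37.9% higher and 24.6% lower in early-numbered arrays. The counts of higher genes were near these shares and show nothing particular to that list. Tigar, which lowers fructose 2,6-bisphosphate, was lower in late-numbered arrays by a difference of -0.85 (SE 0.095, adjusted p = 5.45e-13). Slc2a9, a urate transporter of the same family as the glucose transporters, was lower in early-numbered arrays by a difference of -1.36, as was Pgam5, a mitochondrial phosphatase, at -1.07. Slc2a5, the fructose transporter, was dim, at 3.20 in controls, and higher in early-numbered arrays by 0.55.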

How the data were processed

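The authors deposited log2 values for 93 arrays and 45101 probe sets, made with RMA, which corrects background, quantile-normalizes probes and condenses each probe set by median polish. The RMA version is not given in the sources used here, and whether the values hold the study's standardization on control probe sets is not stated. Values carry at most 3 significant digits, so they move in steps of 0.01 below 10 and 0.1 from 10 up, and ties at group limits arise. The number of arrays limits precision.

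Genes were named from a platform annotation, by 34945 probe sets with 1 symbol, 932 having several and 9160 none listed; all 30 genes matched RefSeq (GRCm38) by Entrez ID. The 64 control probe sets were left out, and the other 45037 were fitted with limma 3.58.1 in R 4.3.3 (lmFit, eBayes with an intensity trend, two-sided, Benjamini-Hochberg, called at adjusted p under 0.05), with the sets control, late-numbered and early-numbered and with cohort as covariate, with no filter on low values. Gapdh controls came from a fit that kept control probe sets. The fit was tested on simulated data.

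All measured genes are named, and of each other pathway list up to 4 genes by smallest p between the tumor sets. The genes and lists were chosen with earlier results of these data known. Alternatives were no cohort term, single cohorts, the label number as a block, median centring, renewed quantile normalization, no trend, array weights, no dim probe sets, mean of probe sets, technical or leukocyte covariates, controls of 1 cohort, and arrays left out. Leaving out the 3 arrays least like the others, and late-numbered arrays with a low actin signal, was chosen after seeing the data.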

Additional observations from a re-analysis of the deposited data

Results flagged for a closer look

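Early-numbered tumor arrays were searched for single arrays far from the rest of their cohort, in 60 groups (30 genes in 2 cohorts) of 5 or 8 arrays. In 7 of the 60 an array was set apart by a gap that was large against the group's range, and chance alone sets apart about 1 in 20 groups. Tumor training 4 was the lowest of 5 in Pfkp at 8.4 (nearest other 9.15), in Rpia at 9.28 (nearest 9.95) and in Prps2 at 6.93 (nearest 7.82). Tumor validation 2 was the lowest of 8 in Pfkm at 4.64 (nearest 5.56) and in Prps2 at 6.35 (nearest 7.16). Tumor validation 5 was the highest of 8 in Aldoa at 12.3 (nearest 11.8), and tumor validation 6 was the highest of 8 in Pfkfb3 at 10.8 (nearest 9.92). Without tumor validation 2, which also correlated least with the other arrays among the early-numbered ones (0.918), 3 genes were higher and 12 lower in early-numbered arrays than in controls.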

How the results depend on the processing

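The counts of genes higher and lower stayed within 1.5 times their values under all alternatives run, with these exceptions. With 3 principal components of the control probe sets as covariates, 8 genes were higher in late-numbered arrays than in controls and 9 than in early-numbered arrays. Validation arrays alone gave 2 genes lower in late-numbered arrays. Median centring gave 5 higher in early-numbered arrays and 7 lower in late-numbered than in early-numbered arrays, renewed quantile normalization also 7, the actin covariate 2 and the leukocyte covariates 9. Without each early-numbered array in turn, late-numbered arrays had 20 to 20 genes higher and 4 to 4 lower than controls, early-numbered arrays 2 to 4 higher and 12 to 15 lower, and the tumor sets differed in 18 to 20 and 3 to 6.

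Single genes kept direction and side of the threshold in 504 of 570, 513 of 570 and 475 of 540 refits of the late, early and late-minus-early differences, and reversed in 11, 5 and 13 (a change of sign between values called in neither fit was not counted). Under the principal components the late differences became -1.45 in Hk1, -0.26 in Hk3, -0.86 in Tpi1, -0.21 in Pfkfb3, 0.20 in Rpia, -0.57 in Taldo1, 0.056 in Prps1 and 0.43 in Prps2. The early difference of Prps1 became -0.30, and those between tumor sets -1.39 in Hk1, -0.54 in Hk3, -0.27 in Pfkfb4, 0.27 in Pgam1, -0.52 in Ldhb, -0.011 in Taldo1 and 0.36 in Prps1. Under the leukocyte covariates the late differences became -0.093 in Slc2a1, -0.31 in Hk2 and -0.056 in Pfkfb3, the early ones 0.063 in Pdha1 and 0.57 in Prps2, and those between tumor sets -0.35 in Slc2a1, -0.21 in Ldhb and -0.29 in Rpe. With the mean of all probe sets of a gene, early differences became -0.56 in Hk1 and 0.45 in Pgk1, and those between tumor sets 0.052 in Slc2a3, -0.33 in Pgk1 and -0.069 in Pdk1. The cause was not tested.

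Label numbers did not pair the arrays: over 28 same-numbered pairs the correlation of deviations ran from -0.468 to 0.237, and 0 arrays correlated best with their own number. The replicate block gave 18 higher and 3 lower in late-numbered arrays, 2 and 12 in early-numbered arrays and 17 and 3 between tumor sets. Over all probe sets it called 6256 higher and 5734 lower in late-numbered arrays against 10785 and 8943 without it, and the principal components called 5010 and 3244. The 28 controls, the 13 early-numbered arrays and the steps of 0.1 above 10 limit small differences.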

Other observations

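Glycogen, the sugar store that neutrophils carry, was read by 12 genes, of which 7 were higher and 2 lower in late-numbered arrays and 4 higher and 5 lower in early-numbered arrays. Of all genes above the median level, 34.2% were higher and 31.8% lower in late-numbered arrays and 16.3% higher and 46.9% lower in early-numbered arrays. Pygl, the glycogen phosphorylase of liver and leukocytes, was higher in late-numbered arrays by 0.67 (SE 0.108, adjusted p = 1.24e-07). Phkg2 and Phka2, subunits of the kinase that activates it, were higher in late-numbered arrays by 0.36 and 0.32 and lower in early-numbered arrays by differences of -0.75 and -0.64. Ugp2, which makes the donor for glycogen synthesis, was higher in early-numbered arrays by 0.53 (SE 0.1, adjusted p = 3.34e-06).

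Of 17 genes of the TCA cycle, 4 were higher and 5 lower in late-numbered arrays, and 1 was higher and 11 lower in early-numbered arrays. Beside them, genes above the median level were 34.2% higher and 31.8% lower in late-numbered arrays, and 16.3% and 46.9% in early-numbered arrays. Succinate dehydrogenase subunits moved in opposite directions in late-numbered arrays, Sdhb by 0.63 (SE 0.0647, adjusted p = 2.35e-14) and Sdha by -0.74 (SE 0.0477, adjusted p = 4e-25). In early-numbered arrays Sdhb was lower by a difference of -0.90, while Sdha differed by 0.00 (adjusted p = 0.998). Dlst and Mdh2 were lower in early-numbered arrays by differences of -0.76 and -0.70, and Dlst was higher in late-numbered arrays by 0.21.

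Of 12 genes of NADPH and glutathione metabolism, 6 were higher and 1 lower in late-numbered arrays, and 2 were higher and 3 lower in early-numbered arrays. Again, genes above the median level were 34.2% higher and 31.8% lower in late-numbered arrays, and 16.3% and 46.9% in early-numbered arrays. Nnt, a mitochondrial source of NADPH, was higher in early-numbered arrays by 0.46 (SE 0.0703, adjusted p = 2.32e-08) and lower in late-numbered arrays by a difference of -0.12 (adjusted p = 0.0315). Me2, Gpx4 and Gss were higher in late-numbered arrays by 0.37, 0.30 and 0.58 and lower in early-numbered arrays by differences of -0.48, -0.54 and -0.48.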
